A study of Homo sapiens with 12 samples.

Results

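A set of 8 genes of the lymphocyte lineage was followed in HL-60, an established human promyelocytic leukaemia cell line that is of the myeloid lineage. The genes were CD3D, CD3E, CD3G, TRAC, GNLY, NKG7, KLRD1 and IL32, 8 of the 60240 genes in the deposited table. They were picked by symbol because of their values in these same libraries, so their levels and their differences between decitabine and DMSO are given as a description, with no test. All cells were of wild-type genotype. They were seeded in duplicate at 100000 cells per mL and given either decitabine, at 100 nM at 0, 24 and 48 h, or the vehicle DMSO, and RNA was taken at 6, 72 and 120 h. Decitabine is a cytidine analogue that enters DNA and traps the DNA methyltransferases. The groups were decitabine at 6, 72 and 120 h, each set against DMSO at the same time, with 2 libraries each, except that 1 of the DMSO 72 h libraries was not analysed here. All libraries came from 1 cell line, and nothing says that the duplicate wells were seeded from separate cultures or on separate days. A p-value here sets a difference between groups against the spread of these samples, which may be technical. It does not say that the difference would return in separate cultures. In RNA from a whole well, more cells that carry a transcript and more transcript per cell cannot be told apart.

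The T-cell receptor is an alpha and beta (or gamma and delta) chain pair that binds antigen and has almost no cytoplasmic tail. It signals through the invariant chains CD3 gamma, delta and epsilon (CD3G, CD3D and CD3E) and CD3 zeta (CD247), whose tyrosine motifs are phosphorylated by LCK and then bound by ZAP70. TRAC is the constant segment of the alpha chain. Granulysin (GNLY) is a membrane-lysing protein of the cytotoxic granule, NKG7 is a protein of the granule membrane of natural killer (NK) and cytotoxic T cells, KLRD1 encodes CD94, which pairs with the NKG2 chains of the KLRC genes to make an NK receptor for HLA-E, and IL32 is a cytokine made by activated T and NK cells, among others. None of them is a defining gene of the promyelocyte.

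Values are the authors' normalised counts. Estimated from the smallest steps between values, the depth was 14427331 to 32908419 counts per library, and 1 count was worth 0.407 to 0.961 normalised counts. The libraries matched their labelled cell type: all 10 promyelocyte markers were above 0 in every library, with myeloperoxidase (MPO) at 86061 to 178349 and lysozyme (LYZ) at 109603 to 277087. The decitabine 72 h duplicates stood apart from each other, with a median absolute log2 difference over genes of 0.59, against 0.19 to 0.26 within the other pairs. The transcript FP671120.7 took 5.25% of the total in decitabine 72 h replicate 1 and 0.106% in replicate 2, with 3.89 to 10.9% in the 4 libraries of 120 h and 0.0424 to 0.794% in the remaining ones. Mitochondrial mRNAs split the libraries in the same way, at 0.662 to 0.812% and 0.238 to 0.415%. For the genes named at 72 h, the value of each decitabine library is therefore given.

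The starts of 4 of the 8 genes were in the RefSeq promoter table (GRCh38.p14), and the 250 bases before the start are printed for them, since decitabine acts on the methylation of CG dinucleotides. CG dinucleotides are in capitals, and each sequence runs 5′ to 3′ on the strand of its gene. GNLY (chr2:85694108-85694357, plus strand), CD3D (chr11:118342706-118342955, minus strand) and IL32 (chr16:3065153-3065402, plus strand) were below 10 in all DMSO libraries, and NKG7 (chr19:51372655-51372904, minus strand) was not.
GNLY: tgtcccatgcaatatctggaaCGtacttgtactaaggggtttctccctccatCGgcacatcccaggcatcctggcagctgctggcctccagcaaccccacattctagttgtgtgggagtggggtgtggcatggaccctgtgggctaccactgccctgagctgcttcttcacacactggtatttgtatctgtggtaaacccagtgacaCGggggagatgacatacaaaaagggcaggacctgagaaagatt
CD3D: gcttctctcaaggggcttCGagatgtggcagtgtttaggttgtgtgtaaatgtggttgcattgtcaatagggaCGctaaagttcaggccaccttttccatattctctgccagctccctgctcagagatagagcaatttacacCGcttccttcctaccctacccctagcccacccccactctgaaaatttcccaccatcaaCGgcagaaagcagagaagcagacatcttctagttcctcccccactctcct
IL32: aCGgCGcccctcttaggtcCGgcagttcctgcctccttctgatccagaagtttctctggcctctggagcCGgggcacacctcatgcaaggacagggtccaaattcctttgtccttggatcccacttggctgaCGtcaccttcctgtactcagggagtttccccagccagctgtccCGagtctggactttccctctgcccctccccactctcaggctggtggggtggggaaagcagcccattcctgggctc
NKG7: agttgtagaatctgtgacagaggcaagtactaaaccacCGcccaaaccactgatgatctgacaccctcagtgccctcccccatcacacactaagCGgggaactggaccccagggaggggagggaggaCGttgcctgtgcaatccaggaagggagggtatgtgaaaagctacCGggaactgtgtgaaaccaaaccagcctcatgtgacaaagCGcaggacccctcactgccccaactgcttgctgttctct

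With the 50 bases after the start included, these 300-base windows held few CG dinucleotides. GNLY had 4, CD3D and NKG7 had 5 each, and IL32 had 7 at the start shown and 7 at a second start. Among all 35116 promoter windows the median was 14 and the quartiles were 4 and 28. A count no higher than that of GNLY was held by 29.6% of all windows, no higher than that of CD3D or NKG7 by 33.7%, and no higher than that of IL32 by 39.3%. The 4 genes thus lay in the lower part of a broad distribution, at or inside its quartiles, and NKG7 was not set apart from the others by its CG count. Short motifs were searched on both strands. The letters TGNGGT, with N any base, were in all 5 windows and in 43.2% of all windows. The core bound by RUNX factors has T or C at N, so this search was looser than that core. The 1 match in NKG7 and the 1 match in the second IL32 window were TGGGGT, which is not that core. The matches in the IL32 sequence printed above, TGGGGT and TGAGGT, are not that core either. The CD3D match was TGTGGT, which is that core, and GNLY held both TGTGGT and TGGGGT. The letters AGGAAG, an ETS-factor core, were in CD3D, NKG7 and both IL32 windows, not in GNLY, and in 33.7% of all windows. AGATAA and TGATAA, forms of the GATA-factor core that end in A, were in none of the 5 windows, and in 10.3% and 7.53% of all windows. The forms that end in G were not searched, and the CD3D sequence above holds AGATAG. No methylation was measured in this series.

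**Figure D1:**
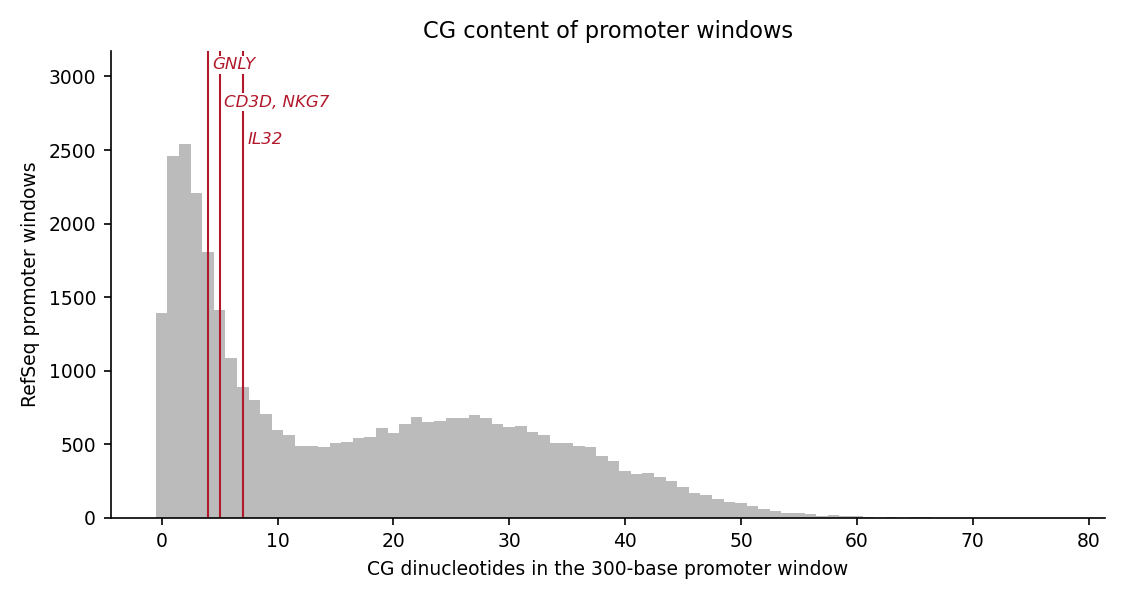
Number of RefSeq promoter windows (vertical axis, of 35116) by the number of CG dinucleotides in the 300-base window (horizontal axis). Vertical lines mark the windows of GNLY (4), CD3D and NKG7 (5 each) and IL32 (7 at both starts), all below the median of 14.

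Of the 3 CD3 genes, which lie within 50431 bases on chromosome 11 (GRCh38.p14, from the start of CD3E at 118304730 to the end of CD3G at 118355161), only CD3D was near 0 under DMSO and well above 10 under decitabine. CD3D (ENSG00000167286.9, 118338954 to 118342705) had 142 and 108 normalised counts in the decitabine 120 h libraries, against 0 and 0.587 in the DMSO 120 h libraries. It had 145 and 39.3 in the decitabine 72 h libraries, against 0 in the DMSO 72 h library. Both decitabine groups stood clear of DMSO, although the 72 h replicates differed 3.68-fold, with the higher value in the library that is high in FP671120.7. At 6 h the order was the other way round, with 0.210 and 0 under decitabine against 6.10 and 4.37 under DMSO, a mean of 5.23 ± 1.23 (SD, n = 2) that rests on about 12.7 counts in all. On the log2(value + 1) scale the decitabine minus DMSO difference of CD3D was -2.49 at 6 h, 6.26 at 72 h and 6.63 at 120 h, and the 72 h value was 5.33 without replicate 1 and 7.19 without replicate 2. No fold is given for CD3D at 72 and 120 h, since DMSO was at or under 3 counts.

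CD3E (118304730 to 118316173) was barely detected. It had 3.23 and 4.62 normalised counts in the decitabine 120 h libraries, about 10.8 counts in all, and was listed at 0 in both DMSO 120 h libraries. It had 1.68 and 0 in the decitabine 72 h libraries and was listed at 0 in the DMSO 72 h library and in all 4 libraries of 6 h. CD3E was the 1 gene of the 8 that did not reach 10 in 2 libraries, the minimum for a test.

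CD3G (118344344 to 118355161) was not silent under DMSO and did not follow CD3D, although their starts are 1639 bases apart, on opposite strands. It had 17.4 and 27.3 normalised counts in the decitabine 120 h libraries, against 17.2 and 18.0 in DMSO, and the groups overlapped. It had 18.7 and 35.4 in the decitabine 72 h libraries, against 14.0 in the DMSO library, and 25.2 and 14.8 against 18.2 and 23.8 at 6 h. The mean at 120 h was 22.4 ± 6.96 under decitabine and 17.6 ± 0.624 under DMSO (SD, n = 2 each), a ratio of 1.27. The log2(value + 1) difference at 120 h was 0.30, and it was -0.16 after quantile normalisation, so its direction was not stable. Across the 11 libraries the Pearson correlation of log2(value + 1) was 0.42 between CD3D and CD3G, 0.82 between CD3D and CD3E and 0.13 between CD3E and CD3G, as a description of libraries that share their treatment and their scaling.

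TRAC (chr14:22547506-22552132) was present at a low level under DMSO and was at least as high at 72 h of decitabine as at 120 h. It had 197 and 221 normalised counts in the decitabine 72 h libraries, against 14.5 in the DMSO 72 h library. It had 178 and 184.5 in the decitabine 120 h libraries, against 18.4 and 24.1 in DMSO, and 12.9 and 18.3 against 17.3 and 12.4 at 6 h. The decitabine means of 209 ± 16.5 at 72 h and 181 ± 4.29 at 120 h were 14.5-fold and 8.54-fold the DMSO means, the replicates lay close together at both times, and the 6 h groups overlapped. The log2(value + 1) difference of TRAC was 3.76 at 72 h and 3.05 at 120 h, and 0.07 at 6 h.

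The beta chain and most alpha segments were not seen with it. TRBC1, 1 of the 2 constant genes of the beta chain, was listed at 0 in all 11 libraries, and TRBC2 was above 0 in 1 library only, at 2.14. The alpha locus had 54 variable segments in the table, of which 10 were above 0 anywhere and 0 reached 10, and 60 joining segments, of which TRAJ6 alone reached 10. TRAJ6 had 12.7 and 8.55 normalised counts in the decitabine 120 h libraries and 12.5 and 9.68 in those of 72 h, against 0 in all 3 DMSO libraries of these times. None of the 69 beta variable and 14 beta joining segments reached 10. CD247, the zeta chain, had 1.55 to 11.3 over all libraries and was not called at any time. LCK and ZAP70 reached no more than 6.07 and 3.33. RAG1, of the recombinase that joins the segments, had 4.99 to 18.6 and was not called at 120 h (limma adjusted p = 0.575), and RAG2 and PTCRA, the surrogate alpha chain, stayed at or below 5.03 and 2.48. The segments, ZAP70, RAG2 and PTCRA were picked out after their values had been seen.

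Of the cytotoxic genes, GNLY (chr2:85694358-85698852) had the largest difference of the 8 at 120 h on the log2(value + 1) scale. It had 353 and 403 normalised counts in the decitabine 120 h libraries, against 1.65 and 1.498 in the DMSO 120 h libraries. It had 83.2 and 38.1 in the decitabine 72 h libraries, against 1.57 in the DMSO 72 h library, and 1.66 and 1.28 against 3.58 and 1.08 at 6 h. The groups overlapped at 6 h and were far apart at both later times, with decitabine means of 378 ± 35.4 at 120 h and 60.6 ± 31.9 at 72 h (SD, n = 2 each). The ratio to DMSO was 239.7 at 120 h and 38.6 at 72 h, on DMSO totals of only about 3.93 and 3.15 counts, so neither ratio is well determined. On the log2(value + 1) scale the difference was 7.20 at 120 h and 4.48 at 72 h. Among the decitabine libraries, the mean of GNLY at 120 h was 6.23 times that at 72 h, which was the largest such ratio of the 8 genes.

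NKG7 (chr19:51371620-51372654) was expressed throughout. It had 281 and 242 normalised counts in the decitabine 120 h libraries, against 73.6 and 73.9 in DMSO. It had 282 and 139 in the decitabine 72 h libraries, against 72.5 in the DMSO library, and 54.7 and 51.6 against 54.8 and 77.7 at 6 h. The decitabine libraries were clear of DMSO at 72 and 120 h, by 2.90-fold and 3.54-fold in the means, and at 6 h they lay just below it. The 72 h difference on the log2(value + 1) scale was 1.44, with 0.93 without replicate 1 and 1.95 without replicate 2.

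KLRD1 (chr12:10238961-10329608) varied too much between replicates to be placed. It had 51.9 and 9.47 normalised counts in the decitabine 120 h libraries, against 24.0 and 12.96 in the DMSO 120 h libraries, and the groups overlapped. It had 34.1 and 41.1 in the decitabine 72 h libraries, against 19.7 in the DMSO library, and 4.56 and 18.6 against 5.85 and 6.50 at 6 h. The mean at 120 h was 30.7 ± 30.0 under decitabine and 18.5 ± 7.83 under DMSO (SD, n = 2 each). The log2(value + 1) difference at 120 h was 0.33, but -0.84 without decitabine replicate 1 and 1.50 without replicate 2. The receptor partners of CD94 were not seen: KLRC1 reached 0.712, and KLRC2 and KLRC3, named after their values had been seen, were listed at 0 in all 11 libraries.

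IL32 (chr16:3065403-3069530) was close to absent under DMSO. It had 83.5 and 75.5 normalised counts in the decitabine 120 h libraries, and was listed at 0 in both DMSO 120 h libraries. It had 29.0 and 18.1 in the decitabine 72 h libraries, against 0.987 in the DMSO library, and 1.51 and 0 against 0 and 0.498 at 6 h. The groups overlapped at 6 h and were apart at both later times, and the decitabine mean at 120 h, 79.5 ± 5.65, was 3.38 times that at 72 h. The log2(value + 1) difference of IL32 was 0.37 at 6 h, 3.59 at 72 h and 6.33 at 120 h.

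Over the 8 genes, the decitabine and DMSO libraries overlapped for CD3G and KLRD1 at 120 h and for CD3E at 72 h. At 6 h they overlapped for all but CD3D and NKG7, both with the lower values under decitabine. Among all 16152 genes tested, limma called 15.9% at 120 h (9.91% higher and 6% lower), 2.19% at 72 h (1.88% higher and 0.31% lower) and 0% at 6 h, where 541 had an unadjusted p under 0.05. These called shares are another measure than overlap, and the share of all genes whose libraries did not overlap was not computed. With 2 libraries against 2, or 2 against 1 at 72 h, the libraries of many genes can lie apart without any effect. Nothing is read from the overlaps, since the genes were chosen for this contrast. As genes switched on, the set was uneven. CD3D, GNLY and IL32 were under 10 in all DMSO libraries and above 10 in all 4 decitabine libraries of 72 and 120 h. CD3E had the same direction at a few counts, and TRAC and NKG7 were raised above an existing level. CD3G and KLRD1 had decitabine means at 120 h of 1.27 and 1.66 times the DMSO means. The order of the decitabine times also differed between the genes. CD3E, GNLY and IL32 had ratios of 120 h to 72 h of 4.67, 6.23 and 3.38, CD3D and NKG7 of 1.36 and 1.24, and TRAC, CD3G and KLRD1 of 0.869, 0.825 and 0.817, and the decitabine libraries of the 2 times overlapped for CD3D, NKG7, CD3G and KLRD1. In the 72 h pair, CD3D, CD3E, GNLY, NKG7 and IL32 were higher in replicate 1, the library high in FP671120.7 and mitochondrial mRNA, and TRAC, CD3G and KLRD1 were higher in replicate 2. The part of this split of the libraries in the 72 h values was not tested. At 120 h the decitabine and DMSO libraries all had the high share of FP671120.7.

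**Figure D2:**
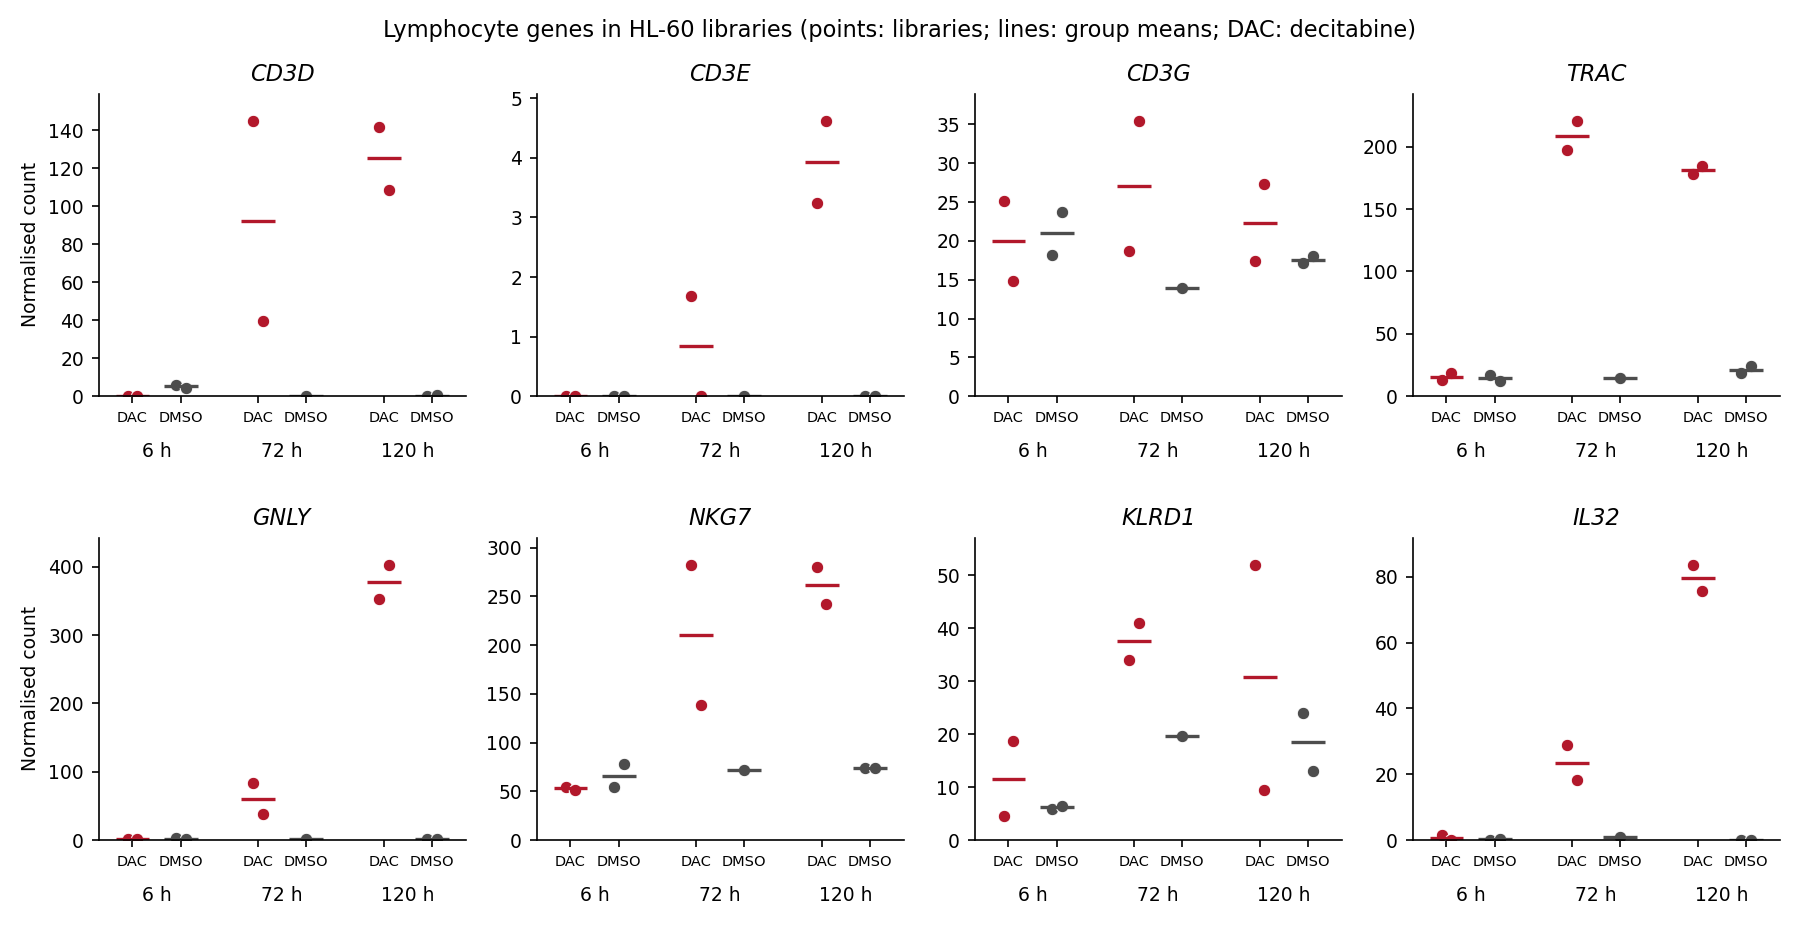
Normalised counts (vertical axes, linear, a scale for each gene) of the 8 genes in each of the 11 libraries, by time and treatment. Points are libraries and lines are group means, with 1 library in DMSO at 72 h. CD3D, GNLY and IL32 lie near 0 in all groups but decitabine at 72 and 120 h, TRAC and NKG7 stand above a visible DMSO level, and the CD3G and KLRD1 points of the 2 treatments overlap at 120 h.

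Over culture time in DMSO, 120 against 6 h, limma called 0 of the 7 genes that reached the minimum, beside 0% of all genes, of which 865 had an unadjusted p under 0.05. The DMSO values were in view when the genes were chosen, and CD3D, GNLY and IL32 reached the minimum through their decitabine libraries alone, so nothing is read from this count. CD3D was 2.29 lower at 120 h on the log2(value + 1) scale, a value that rests on 0.729 counts in all at 120 h and about 12.7 at 6 h. The differences of the 4 genes that reached 10 in a DMSO library ranged from -0.23 for CD3G to 1.38 for KLRD1. KLRD1 was under 10 in both DMSO 6 h libraries, at 5.85 and 6.50, about 15.5 counts in all.

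Markers of T, NK and B cells other than the 8 genes were low in all libraries, and the NK and B-cell sums were higher under decitabine at 72 and 120 h. The summed level of 10 T-cell markers was 21.6 to 41.5 normalised counts in the decitabine 120 h libraries and 20.1 to 23.0 in DMSO, and 28.1 to 28.7 against 43.3 at 72 h. TRBC1 and CD8A were at 0 in all libraries, and CD6 was at 11.3 to 33.9 in every library. The sum of 7 NK-cell markers was 13.3 to 19.4 in the decitabine 120 h libraries and 0 to 3.76 in DMSO, and 11.5 to 25.1 against 7.39 at 72 h. NCR1 and NCAM1 reached 20.6 and 11.99, while GZMA was at 0 in all libraries and GZMB, PRF1 and KLRF1 reached 0.795, 2.68 and 0.828. The sum of 6 B-cell markers was 18.4 to 25.9 in the decitabine 120 h libraries and 4.19 to 6.56 in DMSO, and 16.4 to 22.6 against 2.59 at 72 h, with IGHM at 0 in all libraries. Their part in the values of the 8 genes was not tested.

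The other lymphocyte genes were taken from 8 lists of 152 genes, none of the 8 genes among them. Of these, 23 were at 0 in all libraries and 59 could be tested. At 120 h, 22 of the 59 rose under decitabine (37.3%) and 0 fell, beside 9.91% and 6% of all genes, and 52 had a positive value. The median log2 fold change was 0.92 in the lists and 0.07 over all genes. The lists were chosen with earlier results of these data known, so these shares are no independent support for a lymphoid rise. The lists also hold genes that DMSO cells had at high levels, such as SRGN and PTPN22, with DMSO 120 h means of 38179 and 1020. A further limit is that 10 of the 59 stayed under 10 in every DMSO library, so that only their decitabine values let them be tested, SH2D1A, HES1, CD96 and KIR3DL2 among them. Among the other 49, 17 rose (34.7%), beside 8.35% of the genes that reached 10 in a DMSO library. Quantile normalisation moved the median of all genes at 120 h to -0.10 and changed the split of all calls, 1601 higher and 969 lower, to 1513 and 1465, and it left 21 list genes higher and 1 lower. The count of risen list genes was 12 without decitabine 120 h replicate 1, 11 without replicate 2 and 14 without DMSO 120 h replicate 1.

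At 72 h, 6 of the 59 rose (10.2%) and 0 fell, beside 1.88% and 0.31% of all genes, with a median log2 fold change of 0.38 in the lists and 0.09 over all genes. They were TRDC, SH2D1A, FYN, TYROBP, HES1 and IKZF3. Only their decitabine values let SH2D1A and HES1 be tested, and the limit from the choice of the lists holds here too. Among the 49 that reached 10 in a DMSO library, 4 rose (8.16%), beside 1.35% of all such genes. The count was 2 to 3 without any 1 library of 6 or 120 h, 15 without decitabine 72 h replicate 1 and 12 without replicate 2, where 4 and 0 list genes fell. Quantile normalisation moved the all-gene median at 72 h to -0.04 and the split of all calls, 303 higher and 50 lower, to 284 and 97. At 6 h none of the 59 was called by limma, with 4 at an unadjusted p under 0.05. The effect at 120 h minus that at 72 h was called for none of the 59, with 10 at an unadjusted p under 0.05 and a smallest limma adjusted p of 0.444, so a call at 120 h and none at 72 h is not a shown difference between the times. Without decitabine 72 h replicate 1, limma called this difference for 10 list genes, positive for 9 and negative for 1.

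**Figure D3:**
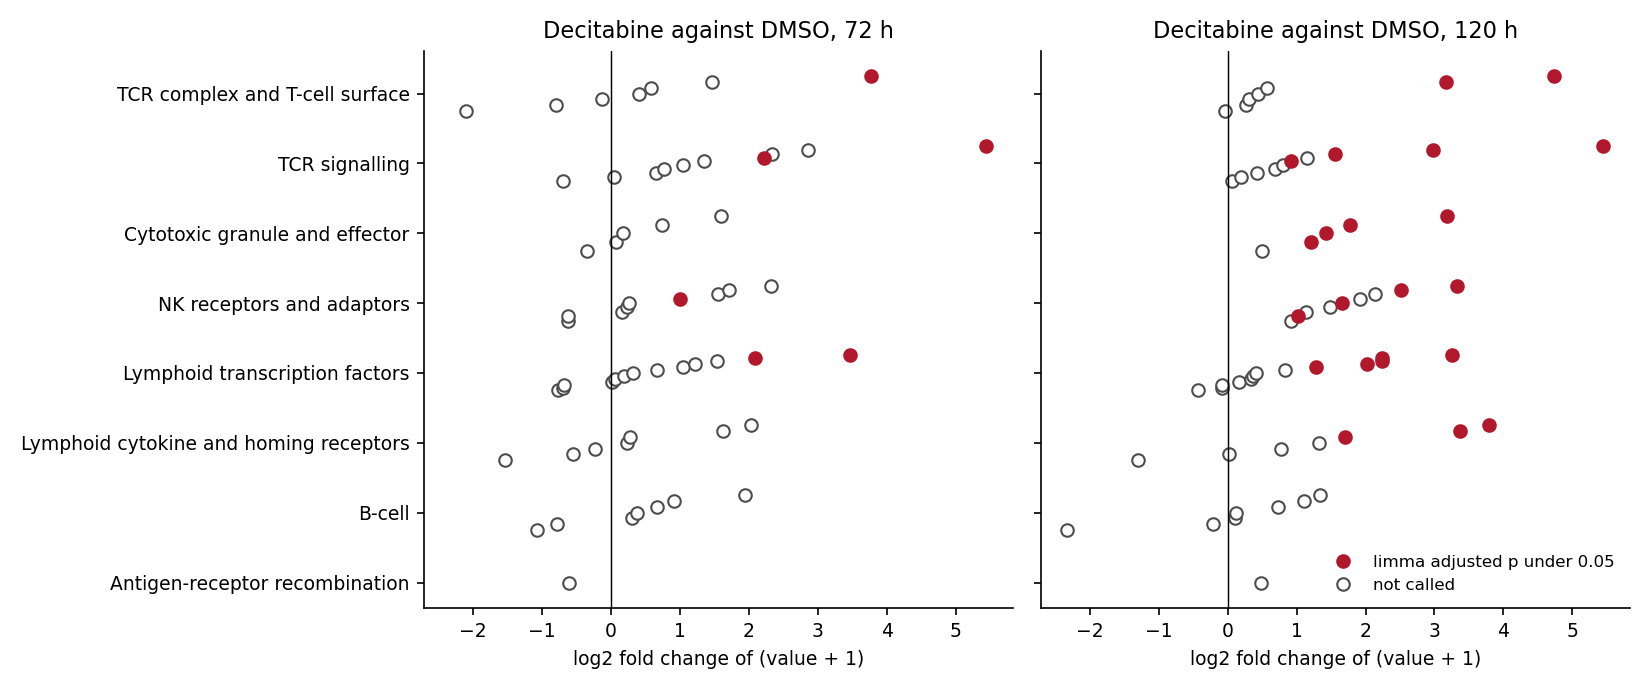
Log2 fold change of (value + 1), decitabine against DMSO, at 72 h (left) and 120 h (right) for the 59 tested genes of the 8 lists, 1 row of points for each list. Filled points are genes with a limma adjusted p under 0.05, 6 at 72 h and 22 at 120 h, all to the right of 0.

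Among T-cell receptor and surface genes, 2 of 7 rose at 120 h. TRDC, the constant segment of the delta chain, whose genes lie within the alpha locus, had 696 and 798 normalised counts in the decitabine 120 h libraries, against 23.2 and 31.4 in DMSO, a 27.4-fold difference of means (log2 fold change 4.74, SE 0.243, limma adjusted p = 4.74e-05). It had 433 and 386 in the decitabine 72 h libraries, against 28.9 in the DMSO library (3.78, SE 0.297, limma adjusted p = 0.00149). The TRDC groups were far apart at both times, with close replicates, and its call held in all 17 alternatives at 120 h and at 72 h. CD96, an adhesion receptor of T and NK cells, had 26.5 and 43.6 against 1.82 and 4.41 at 120 h (3.16, limma adjusted p = 0.0136), a call lost without either decitabine library or DMSO replicate 1 of that time (limma adjusted p = 0.0636 to 0.115). Only its decitabine values let CD96 be tested, so nothing is read from its p-values. Segments of the gamma and delta loci were looked up beside TRDC after its value had been seen, and are given without a test. TRGV10 had 56.7 and 55.6 normalised counts in the decitabine 120 h libraries, against 0 and 1.61 in DMSO, and 28.4 and 18.7 against 3.49 at 72 h. TRDV2 had 12.7 and 14.2 against 2.40 and 0 at 120 h. Both stood clear of DMSO. Other segments that reached 10 went both ways at 120 h. TRGV9 had 73.2 and 90.5 under decitabine against 40.7 and 22.5 in DMSO, and TRGJP2 had 20.9 and 11.4 against 9.58 and 10.46. TRGV8 had 2.24 and 9.26 against 8.78 and 15.3, with overlap, and TRGJP1 was lower, at 8.96 and 8.55 against 11.98 and 18.5. TRGJ2, TRGJP2 and TRGJP1 were highest in decitabine 72 h replicate 2, at 11.1, 58.8 and 54.6. The gamma constant genes TRGC1 and TRGC2, near-identical copies whose reads may be split between them, were present in every library, at 273 to 461 and 546 to 1127.

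Of the T-cell receptor signalling genes, 4 of 10 rose at 120 h: SH2D1A, LAT, PTPN22 and FYB1. SH2D1A, which encodes the adaptor SAP of the SLAM receptors, had 147 and 122 normalised counts in the decitabine 120 h libraries, against 0.817 and 4.26 in DMSO (log2 fold change 5.45, SE 0.662, limma adjusted p = 0.00136). It had 121 and 53.6 against 0.880 at 72 h (5.44, limma adjusted p = 0.0149). Only its decitabine values let SH2D1A be tested, so nothing is read from its p-values. LAT, the membrane scaffold that ZAP70 phosphorylates, had 105 and 211 against 12.8 and 25.3 at 120 h (2.97, limma adjusted p = 0.0133), a call lost without decitabine replicate 2 (0.108) or DMSO replicate 1 (0.0868) of that time. PTPN22 and FYB1, a phosphatase and an adaptor that myeloid cells also carry, had log2 fold changes of 1.56 and 0.92, and the FYB1 call was lost without any 1 library of 120 h (limma adjusted p = 0.0911 to 0.122). FYN, an SRC-family kinase, rose at 72 h, with 28.1 and 29.0 in decitabine against 5.37 in DMSO (2.21, limma adjusted p = 0.0345), where its DMSO library was the lowest of the 11, and was 0.06 at 120 h. The FYN call was lost without any 1 library of 6 or 120 h (limma adjusted p = 0.0603 to 0.0839).

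In the cytotoxic list 4 of 5 tested genes rose at 120 h. The chemokine CCL5 had 1273 and 1246 normalised counts in the decitabine 120 h libraries, against 137 and 139 in DMSO, 9.13-fold (log2 fold change 3.18, limma adjusted p = 0.000945). CTSW, CST7 and SRGN, a protease, a protease inhibitor and the proteoglycan core of granules, rose 3.64-fold, 2.69-fold and 2.30-fold, and SRGN is a granule gene of myeloid cells as well. These last 3 calls were each lost without any 1 of the 4 libraries of 120 h (limma adjusted p = 0.132 to 0.198) and without single libraries of 6 h (0.0549 to 0.081). Of the other 11 genes of the list, 5 were at 0 in all libraries and the granzymes and perforin were among those under the minimum.

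Of the NK receptors and adaptors, 4 of 9 rose at 120 h. FCGR3A, the Fc receptor CD16a, had 211 and 167 normalised counts in the decitabine 120 h libraries, against 15.9 and 20.1 in DMSO (3.32, limma adjusted p = 0.00111), and may share reads with its near-identical copy FCGR3B. KIR3DL2, an inhibitory receptor, had 30.0 and 26.7 against 3.74 and 4.52 (2.52, limma adjusted p = 0.0107), with the same limit for the KIR family, and its call was lost without either decitabine library or DMSO replicate 1 of 120 h (limma adjusted p = 0.0574 to 0.0896). TYROBP, the adaptor DAP12, which NK and myeloid cells share, had 1500 and 1570 against 458 and 514 (1.66, limma adjusted p = 0.000363), and rose at 72 h too, with 860 and 791 against 413 (1.00, limma adjusted p = 0.0336). CD244, a SLAM-family receptor, had 969 and 831 against 420 and 467 (1.02), a call lost without any 1 library of 120 h (limma adjusted p = 0.0513 to 0.098). The TYROBP call at 72 h was lost without any 1 library of 6 or 120 h, with library weights and with the replicate block. Only its decitabine values let KIR3DL2 be tested, so nothing is read from its p-values.

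Among lymphoid transcription factors 5 of 13 rose at 120 h. HES1, a target of Notch signalling, had 19.7 and 18.2 normalised counts in the decitabine 120 h libraries, against 1.09 in both DMSO libraries (3.25, limma adjusted p = 0.00738), and 19.02 and 27.5 against 1.16 at 72 h. IKZF3 and IKZF2, the Ikaros-family factors Aiolos and Helios, had means of 138 ± 5.91 and 379 ± 111 in decitabine, against 28.4 ± 2.32 and 78.0 ± 7.60 in DMSO (2.25 and 2.24, limma adjusted p = 0.00136 and 0.00157). At 72 h IKZF3 had 67.2 and 98.4 against 18.3 (2.09, limma adjusted p = 0.0198). Only its decitabine values let HES1 be tested, so nothing is read from its p-values. ID2 rose 4.09-fold (2.03), and NFIL3, the fifth and outside the rule for naming genes, had a log2 fold change of 1.28. The HES1 call at 120 h was lost without either decitabine library of that time (limma adjusted p = 0.0656 and 0.058), and the ID2 call without replicate 1 (0.0502). At 72 h the HES1 call was lost without any 1 library of 6 or 120 h or decitabine 72 h replicate 2 (limma adjusted p = 0.0644 to 0.114), and the IKZF3 call without either decitabine 120 h library (0.0599 and 0.0592). GATA3 was at 0 in all libraries, and TBX21 and EOMES, the factors of cytotoxic cells, reached 4.24 and 2.00; these were named after their values had been seen. Of the cytokine and homing receptors 3 of 7 rose at 120 h. IL18R1 and IL18RAP, the chains of the interleukin-18 receptor, had means of 147 ± 9.44 and 138 ± 19.4 in decitabine, against 14.1 ± 6.79 and 41.9 ± 8.69 in DMSO (3.37 and 1.70), and leaving out decitabine 120 h replicate 2 ended the call of IL18R1 (limma adjusted p = 0.0502). None of 7 B-cell genes and 0 of 1 recombination gene was called by limma at 120 h, with 1 and 0 at an unadjusted p under 0.05.

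**Figure D4:**
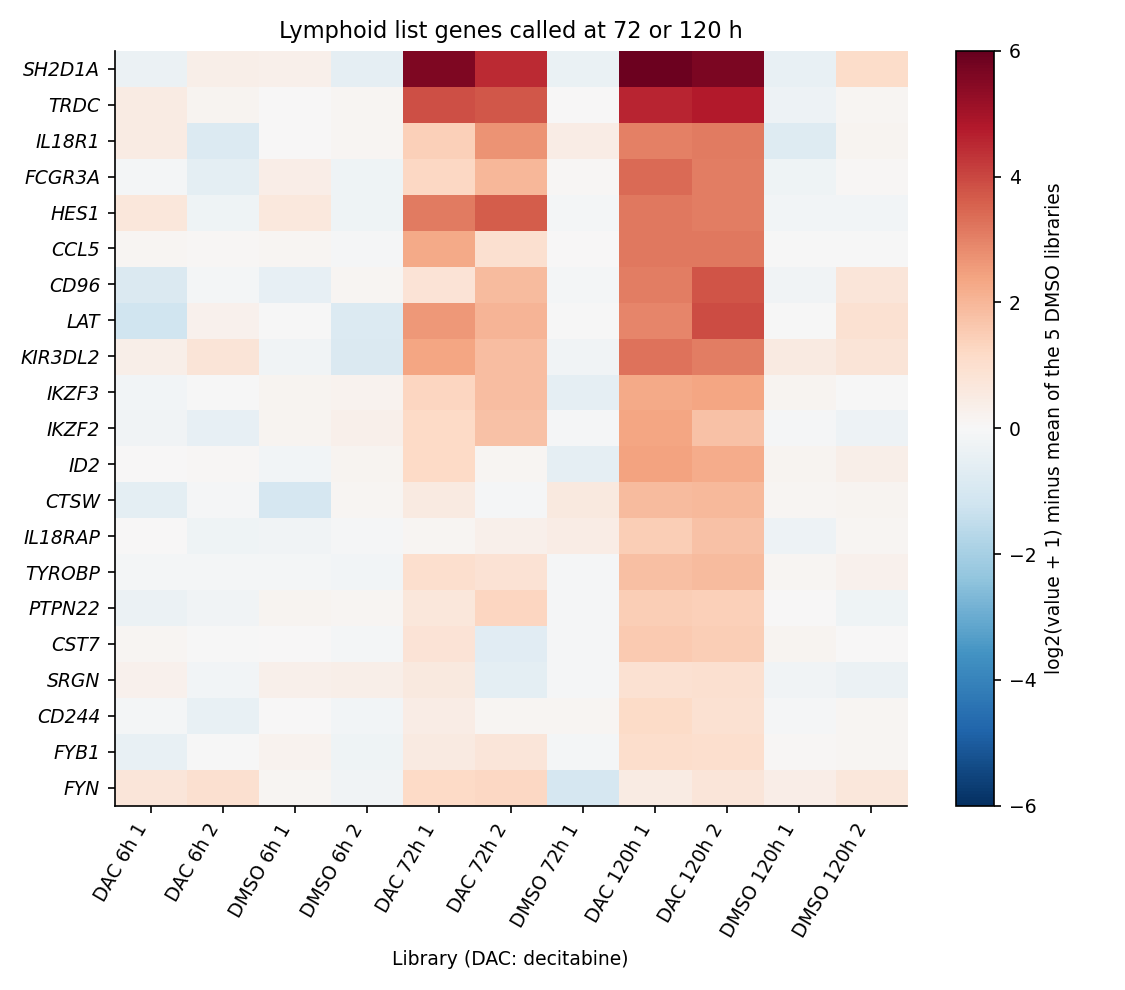
Colour gives log2(value + 1) minus the mean of the 5 DMSO libraries for 21 list genes called at 72 or 120 h (down the page) in each of the 11 libraries (across). Red is higher and blue lower. The decitabine 120 h columns are the deepest red for most genes, FYN is deepest in the decitabine 72 h columns, and the SRGN and CST7 squares of the decitabine 72 h pair differ in sign.

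Beside the genes themselves on the chromosome, the nearest 3 genes on each side made 36 neighbours, of which 9 were at 0 in all libraries and 17 could be tested. At 120 h, 5 of the 17 rose and 1 fell, beside 9.91% and 6% of all genes, and at 72 h 2 rose and 0 fell, or 3 and 1 once the first decitabine library of 72 h was left out, and 2 and 0 once the second was. Among the 15 that reached 10 in a DMSO library, 4 rose at 120 h, beside 8.35% of all such genes. Upstream of CD3E, MPZL2 and MPZL3, adhesion proteins of the myelin-protein-zero family, rose at 120 h. MPZL2 had 31.6 and 18.2 normalised counts in the decitabine 120 h libraries and was listed at 0 in both DMSO libraries, and only its decitabine values let it be tested. MPZL3 had 486 and 554 against 203 and 171 (1.47). On the other side of the cluster UBE4A and ATP5MG, which had 1376 to 1814 and 1142 to 2133 normalised counts over all libraries, were at -0.07 and -0.22 and were not called. KMT2A, a histone methyltransferase, was lower at 120 h, with 833 and 1596 against 3365 and 5809 (-1.94, limma adjusted p = 0.0469). This call was lost without any 1 library of 6 or 120 h. KMT2A also varied widely under DMSO, with 953 in the DMSO 72 h library, inside the range of the decitabine 120 h libraries. Its log2 fold change was 0.51 at 72 h, with 761 and 2408 in decitabine, and -1.57 at 6 h, neither called.

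Next to IL32, MMP25, a membrane-bound metalloproteinase of leukocytes, had 274 and 251 normalised counts in the decitabine 120 h libraries, against 15.9 and 14.4 in DMSO (log2 fold change 4.03), and 151 and 73.5 against 18.0 at 72 h (2.49). The 72 h call was lost without any 1 library of 6 or 120 h, with library weights and with no filter. Its antisense gene MMP25-AS1 was at 0.70 and not called (limma adjusted p = 0.401), and the sources used here do not say whether strand was used in counting. Near KLRD1, GABARAPL1, an autophagy protein, had 465 and 380 against 135 and 108 at 120 h (1.79) and rose at 72 h as well, with 264 and 409 against 86.5 (1.91), and OLR1, a lectin-like receptor of the same gene complex, had 41.1 and 43.3 against 11.1 and 18.0 (1.51). The OLR1 call was lost without either decitabine library or DMSO replicate 1 of 120 h (limma adjusted p = 0.117 to 0.131), and the 72 h call of GABARAPL1 without any 1 library of 120 h or of DMSO at 6 h (0.0559 to 0.0726). DAD1, the nearest tested neighbour of TRAC, was at 0.20 and not called. ABHD4, beyond DAD1, had 57.0 and 33.9 against 13.6 and 16.1 at 120 h (1.51), and was not called (limma adjusted p = 0.0796). No neighbour of GNLY or NKG7 was called.

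**Figure D5:**
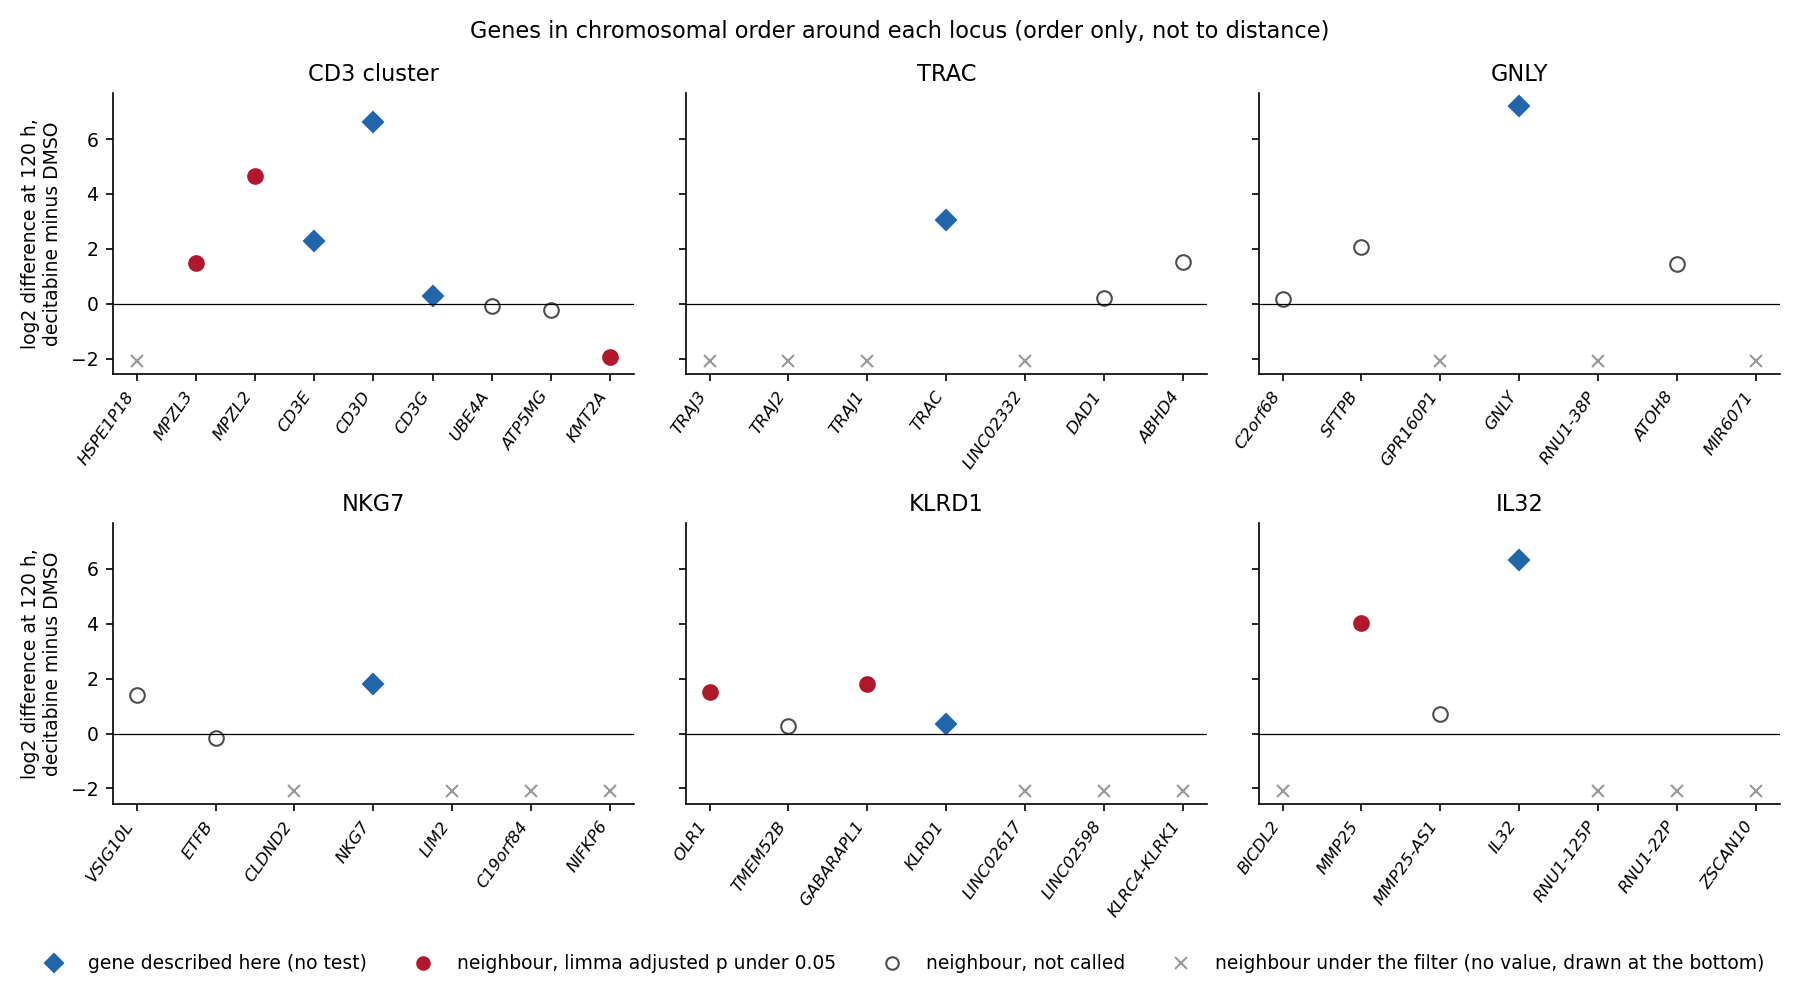
Log2(value + 1) difference at 120 h, decitabine minus DMSO, for the 8 genes (diamonds, no test) and their neighbours (circles, filled where the limma adjusted p was under 0.05; crosses, under the minimum and without a value) in chromosomal order. MPZL3, MPZL2, OLR1, GABARAPL1 and MMP25 are filled above 0 and KMT2A below it.

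The genes whose values over the 11 libraries ran most like those of each of the 8, by Pearson correlation of log2(value + 1), are given as a description. For GNLY they were TLR8, IER3 and CYBB, at 0.994, 0.994 and 0.993. TLR8, an RNA sensor of myeloid endosomes, had 742 and 764 normalised counts in the decitabine 120 h libraries, against 112 and 110 in DMSO, and 383 and 297 against 133 at 72 h, so GNLY ran with genes that DMSO cells already had. For IL32 they were PTH2R, SUCNR1 and AL590550.1, at 0.994, 0.993 and 0.992. For NKG7 they were CCR1, PPM1M and DOK2, at 0.977, 0.976 and 0.975. For TRAC they were H1-6, TRIM72 and PNMA5, at 0.996, 0.992 and 0.990. H1-6, the testis linker histone, had 264 and 284 in the decitabine 120 h libraries, against 3.19 and 4.02 in DMSO, and 414 and 445 against 0.997 at 72 h, with the same order of times as TRAC. For CD3D they were SUSD3, TRIQK and COL14A1, at 0.984, 0.977 and 0.975, and for CD3E, which rests on 3 libraries above 0, DNAJC5, CXCR4 and PADI4, at 0.992, 0.991 and 0.988. For CD3G they were SUGT1P2, AP000695.3 and FRMD4A, at 0.930, 0.913 and 0.879, and for KLRD1 ANKRD35, LY75-CD302 and KCNMB3, at 0.908, 0.899 and 0.895. The closest pair among the 8 was GNLY and IL32, at 0.976, and CD3G and KLRD1 were the least alike, at -0.14.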

How the data were processed

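RNA was depleted of ribosomal RNA and sequenced as stranded single-end 50 bp libraries, per the labels' protocols. The deposited table holds a signal that is never negative: estimated counts normalised by the authors. The submitters' processing notes list DESeq2, featureCounts, limma, Salmon 1.2.1, STAR and hg38 without saying what each was used for. The annotation release was not given in the sources used here. In a library, 59.4 to 65.5% of low values were whole multiples, within 0.01, of that library's step, so whole reads could not be recovered and no count model was run. Depth was estimated from the steps. The heading names 12 libraries over 11 values, per the file headers. Read from the symbol field, libraries of a group differed by 0.299 (mean of median absolute log2 differences) and others by 0.439, against 0.429 and 0.426 read from the identifier. All results rest on that reading, which leaves DMSO 72 h replicate 2 without values.

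Values were transformed to log2(value + 1), with genes of at least 10 in at least 2 libraries kept (16152). Folds on this scale understate the change of low genes. One mean for each of 6 groups was fitted with limma 3.58.1 (lmFit, eBayes with trend) in R 4.3.3, with 5 residual and 8.42 total degrees of freedom, and the lone DMSO 72 h library was taken to vary as the other groups do. The p-values are two-sided with Benjamini-Hochberg adjustment over all genes tested, and called means an adjusted p under 0.05. The scripts were tested on simulated data. Values of a group are means ± SD. The 8 genes and the lists were chosen with earlier results of these data known. The genes named are the 8, up to 4 called genes of a list with the largest fold change at 120 h and at 72 h, called neighbours, the 3 genes most alike in pattern, and cell-type markers. Gene order, coordinates and promoters are from RefSeq (GRCh38.p14). Alternatives were pseudocounts of 0.5 and 5, no filter, quantile normalisation, library weights, a replicate block, all DMSO libraries as the 72 h control, and leaving out each library. A comparison of CD3 protein sequences was planned and not run. One called list gene is not reported here. Plots were drawn with matplotlib 3.10.9.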

Additional observations from a re-analysis of the deposited data

How the results depend on the processing

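The groups of 2 limit every call, and DMSO at 72 h had 1 library. Where a library was left out, the one that remained was taken to vary as the other groups do. Among the 8 genes, 117 of 149 recomputed differences stayed within 1 SD of the replicates and 32 moved further. Pseudocounts moved the differences of genes near 0 in DMSO most: at 120 h CD3D was 7.40 with 0.5 and 4.61 with 5, and IL32 was 7.32 and 4.08. The count of 0 called over culture time in DMSO was the same in all alternatives run.

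For the list genes at 120 h, the count of 22 higher was 11 to 24 when 1 library was left out. The count of 0 lower was 1 with quantile normalisation, 2 with library weights and 0 to 1 when 1 library was left out. At 72 h, the count of 6 higher was 1 with library weights, 18 with all DMSO libraries as control and 2 to 15 when 1 library was left out, and the count of 0 lower was 0 to 4. The difference of effects between 120 and 72 h, with 0 called either way, was called positive for 0 to 9 and negative for 0 to 1 when 1 library was left out. CST7 at 72 h was 0.17, and without single libraries it was -0.57 (decitabine replicate 1, reversed) to 0.92. For the neighbours, the count of 5 higher at 120 h was 4 to 6 when 1 library was left out, and that of 1 lower was 0 without the filter and 0 to 1 when 1 library was left out. At 72 h, the count of 2 higher was 0 without the filter, 0 with library weights, 4 with all DMSO libraries as control and 0 to 3 when 1 library was left out, and that of 0 lower was 0 to 1. The rule for naming genes took in 27 list genes and neighbours called at 120 h, with NFIL3 outside it. Of these 27, 14 kept their call in all alternatives run, and of 8 called at 72 h, 1 did, TRDC. Library weights ended each of the other 72 h calls, those of SH2D1A, FYN, TYROBP, HES1, IKZF3, GABARAPL1 and MMP25. The 13 others at 120 h were CD244, CD96, CST7, CTSW, FYB1, HES1, ID2, IL18R1, KIR3DL2, KMT2A, LAT, OLR1 and SRGN. The causes were not tested.

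Replicate numbers did not pair the samples: replicate differences of any 2 groups correlated at -0.08 to 0.12 over genes. With the replicate block, 3 list genes were higher at 72 h and 1 neighbour was, and the other counts stayed within 1.5 times of those given.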
